A study of Danio rerio with 18 samples.

Results

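In the table of reads per gene from 18 libraries of zebrafish (Danio rerio) embryos, 77 of 25535 genes were higher in a her3 knockout line (her3_38aa) than in wild-type WIK embryos at both ages examined. A gene was taken when, at 24 hours post fertilisation (hpf) and also at 72 hpf, all 3 values of the line exceeded all 3 WIK values, the mean of log2(CPM + 0.5) was higher by 1 or more, and the mean of the line was 1 CPM or more. CPM is the authors' read count of a gene after scaling to a common effective library size. The rule was met by 265 genes at 24 hpf (1.04% of the table) and by 227 at 72 hpf (0.889%). The 77 genes that met it at both ages (0.302%) were 29.1% of the first list and 33.9% of the second, and 102 genes met the mirror rule of being lower at both ages. The genes were thus chosen by their values in the her3_38aa and WIK libraries, and the differences between these groups are given below as a description, with no test.

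Poly(A) RNA was sequenced from pools of 20 to 25 whole embryos, with 3 pools in each of 6 groups. WIK embryos, untreated and wild type, were collected at 24 hpf and at 72 hpf, and so were embryos labelled her3 -/-, whose titles name the line her3_38aa. The other 2 groups were wild-type WIK embryos that received a her3 morpholino (her3-MO) or a mismatch morpholino (mm-MO) by injection between the 1-cell and 4-cell stages, and both were collected at 24 hpf only. A morpholino is an antisense oligomer that blocks the use of a transcript, and the mismatch form serves as injection control. The strain in which the her3_38aa line was made or kept is not given in the sources used here, and none of the 6 groups was labelled as wild-type siblings of that line. The effect of the her3 allele and that of the line's other inherited differences from WIK therefore cannot be told apart in these libraries. The morpholino groups share the WIK strain with the controls and entered no part of the rule.

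her3 encodes a Hairy/E(spl)-related repressor, a transcription factor of the basic helix-loop-helix class that acts in the early neural plate, where proteins of this family hold back neuronal differentiation. Zebrafish strains such as WIK are not inbred, and separate lines can carry different alleles and different copies of genes, most of all in large immune families. A line kept apart from WIK can also differ from it at other places in the genome than the mutated gene.

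The 18 libraries held 14214136 to 23135995 reads, and 3 reads corresponded to 0.122 to 0.255 CPM. Of 30 marker genes of muscle, neurons, red blood cells, skin, hatching gland, and liver and pancreas, 24 reached 1 CPM in all 12 libraries of 24 hpf and 26 in all 6 of 72 hpf. In 4 groups 1 library stood apart from its replicates. The median absolute log2 difference to the other replicates was 0.33 and 0.36 for WIK replicate 1 at 24 hpf, 0.28 and 0.24 for mm-MO replicate 3, 0.17 and 0.19 for her3-MO replicate 1, and 0.20 and 0.15 for her3_38aa replicate 3 at 72 hpf, against 0.11 to 0.12 for the remaining pair of each group. In these whole-embryo pools fewer cells of a type and less RNA per cell cannot be told apart.

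her3 itself was not among the 77 genes. At 24 hpf it stood at 11.0, 9.24 and 9.82 CPM in WIK, at 22.2, 22.1 and 22.1 CPM in the libraries labelled her3_38aa, at 7.87, 7.66 and 8.09 CPM with mm-MO and at 41.8, 33.7 and 32.3 CPM with her3-MO. At 72 hpf it stood at 1.42, 1.22 and 1.42 CPM in WIK and at 2.51, 1.96 and 1.97 CPM in the libraries labelled her3_38aa, a log2 difference of 0.51 that kept it out of the set. The transcript was thus higher, not lower, in the libraries labelled as knockout, and the transcript level does not check that label. Directions below follow the labels.

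The 77 genes differed by a similar median amount at both ages, which the rule favoured by asking for 1 or more at each. It left out 188 genes that met the limits at 24 hpf alone and 150 that met them at 72 hpf alone. Nothing is therefore read from the likeness of the ages. The median log2 difference of her3_38aa from WIK was 1.53 at 24 hpf and 1.59 at 72 hpf, with the highest at 3.87 and 3.51. For 55 genes the differences at the ages lay within 0.5 of each other, and the difference was larger at 24 hpf for 39 genes and larger at 72 hpf for 38. The median gene was covered by 8.07 CPM in her3_38aa and 1.97 CPM in WIK at 24 hpf, and by 7.21 and 1.31 CPM at 72 hpf. In WIK 22 of the genes had a mean under 1 CPM at both ages. From 24 to 72 hpf 17 of the 77 fell at least 2-fold in WIK (22.1%, against 15.9% of all 20738 genes tested) and 8 rose (10.4%, against 24.8%). In her3_38aa 18 fell and 8 rose, and of these 13 fell and 8 rose in both lines. The limits of the rule passed between close values. Just inside were nitr4a at 1.01, NTN1 (ENSDARG00000105112) at 1.03 and LRRC28 at 1.04 for the smaller of the differences, and just outside were NOTCH1 (ENSDARG00000052094) and PCSK7, both at 1.00 after rounding, and CCSER2 at 0.99.

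**Figure D1:**
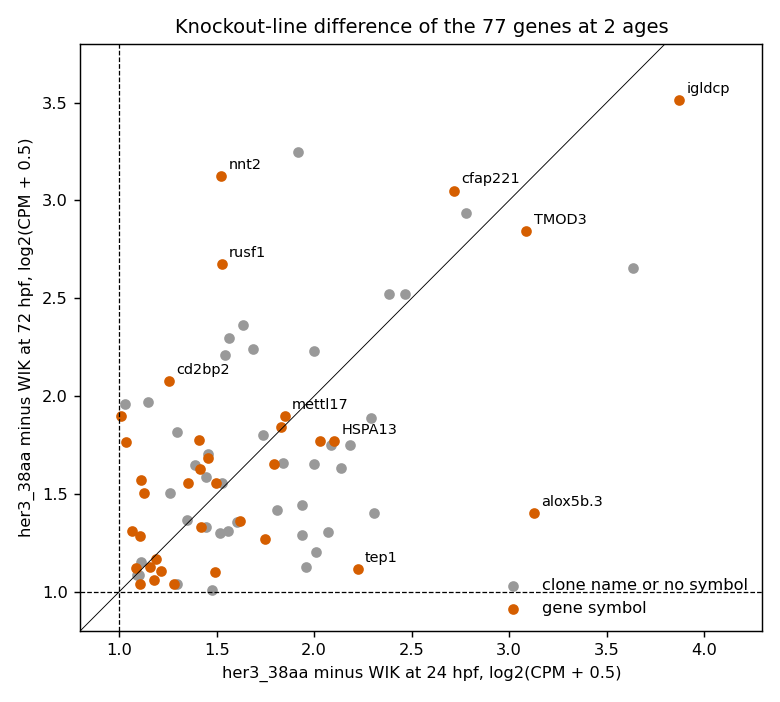
Each point is 1 of the 77 genes, with the log2(CPM + 0.5) difference of her3_38aa from WIK at 24 hpf on the x axis and at 72 hpf on the y axis; dashed lines mark the limit of 1 used by the rule and the solid line marks equal differences. Points lie on both sides of the line of equality, with alox5b.3 and tep1 farther from WIK at 24 hpf and nnt2 and rusf1 farther at 72 hpf. For nnt2 the ratio of mean CPM was 13.9 and 13.8 at the ages, so its place reflects the 0.5 CPM added to low values.

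The set had few annotated genes. A symbol was given for 35 of the 77, a clone name for 32 and no name for 10, so that 54.5% had no assigned symbol, against 25.1% of all genes in the table. Where such genes have near-identical copies, the authors' counting could have split or dropped shared reads. The log2 differences of these 42 genes reached 3.64 at 24 hpf, for ENSDARG00000099292, and 3.25 at 72 hpf, for si:dkey-22i16.9. ENSDARG00000099292 stood at 1.02, 1.85 and 3.48 CPM in WIK and at 32.1, 30.6 and 26.4 CPM in her3_38aa at 24 hpf, with 1.75, 1.79 and 2.01 CPM with mm-MO and 3.86, 1.97 and 1.23 CPM with her3-MO. Both morpholino groups lay among or close to the WIK values and far under the her3_38aa values.

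**Figure D2:**
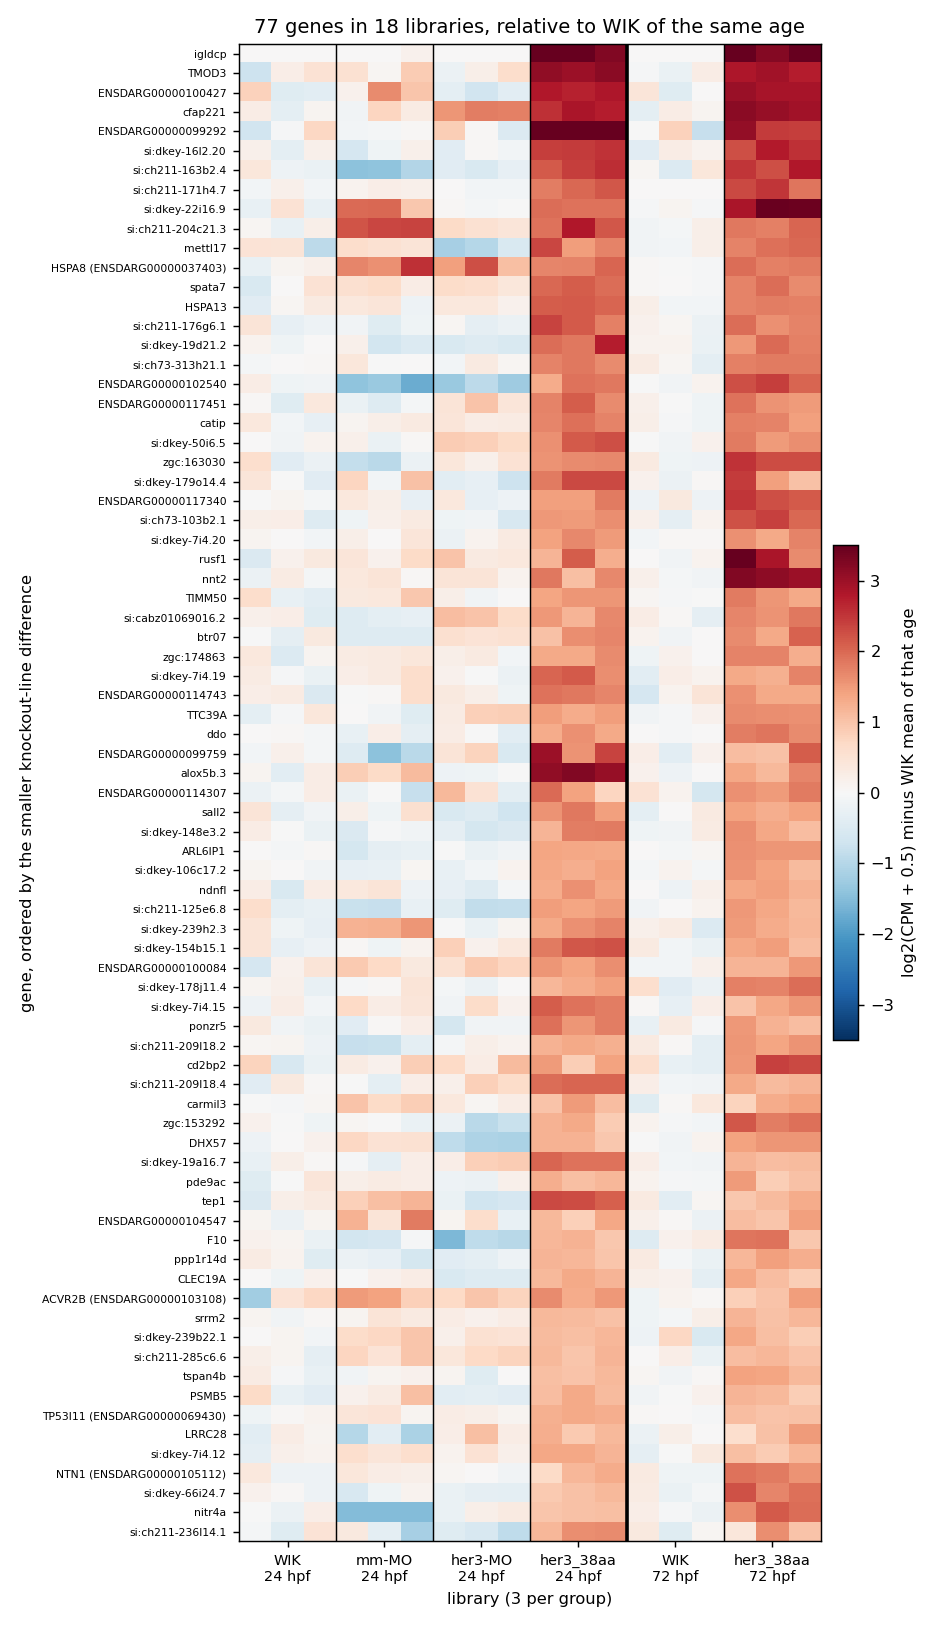
The heat map shows log2(CPM + 0.5) of each of the 77 genes (rows) in each of the 18 libraries (columns, 3 per group) minus the WIK mean of the same age; the colour scale ends at 3.5, and larger values are drawn in its darkest shade. The her3_38aa columns are red throughout because the rule chose the rows, while most rows are pale in both morpholino groups and a few are red or blue in 1 of them.

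Of the genes of cell structure, TMOD3, a tropomodulin that caps the pointed end of actin filaments, showed the largest difference. It stood at 3.82, 7.87 and 9.62 CPM in WIK and at 61.5, 56.1 and 63.7 CPM in her3_38aa at 24 hpf, and at 3.61, 3.14 and 4.62 CPM and 30.0, 32.4 and 27.8 CPM at 72 hpf. With mm-MO it was at 9.95, 7.04 and 12.8 CPM and with her3-MO at 5.72, 7.75 and 10.4 CPM, so that both morpholino groups overlapped WIK. The log2 differences of her3_38aa from WIK were 3.09 and 2.84. carmil3, of a family that regulates actin capping protein, stood at 0.170, 0.158 and 0.205 CPM in WIK and at 0.850, 1.39 and 0.934 CPM in her3_38aa at 24 hpf. At 72 hpf it was at 2.88, 4.14 and 5.39 CPM against 7.32, 10.6 and 11.6 CPM. This gene rose with age in both lines and the groups did not overlap at either age.

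Members with roles in cilia were cfap221, catip and spata7, of which the motile cilium list held cfap221. It encodes a protein of the central apparatus of motile cilia. Its values were 3.99, 2.48 and 3.53 CPM in WIK and 21.5, 26.8 and 24.9 CPM in her3_38aa at 24 hpf, then 0.781, 1.43 and 1.22 CPM and 14.0, 13.0 and 11.9 CPM at 72 hpf. WIK fell between the ages by more than her3_38aa did, and the log2 difference was 2.72 and then 3.05. catip, linked in zebrafish to cilium formation and actin, stood at 5.26, 3.64 and 3.12 CPM in WIK and at 14.0, 16.3 and 14.3 CPM in her3_38aa at 24 hpf, with log2 differences of 1.79 and 1.65 at the ages. spata7, which in mammals is needed at the connecting cilium of photoreceptors, was at 3.48, 5.33 and 7.62 CPM against 22.6, 24.4 and 21.9 CPM at 24 hpf, with log2 differences of 2.03 and 1.77. For catip and spata7 both morpholino groups lay under every her3_38aa value.

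Several of the genes act in mitochondria or metabolism. nnt2 is named as a nicotinamide nucleotide transhydrogenase, an enzyme of the inner mitochondrial membrane that links NADH and NADPH. It was barely detected in WIK at 24 hpf, at 0, 0.211 and 0.0512 CPM, and stood at 1.60, 0.696 and 1.35 CPM in her3_38aa. At 72 hpf it was at 0.927, 0.691 and 0.661 CPM against 11.4, 10.4 and 9.56 CPM. The log2 difference was 1.52 at 24 hpf and 3.12 at 72 hpf. The ratio of mean CPM was 13.9 at 24 hpf, where WIK had 5 reads in all, and 13.8 at 72 hpf. The log2 differences of nnt2 thus differ through the 0.5 CPM added to low values, and no larger change at 72 hpf is read from them. TIMM50, a subunit of the inner-membrane protein translocase, was at 17.3, 9.24 and 8.54 CPM against 29.8, 33.7 and 33.4 CPM at 24 hpf, and its highest WIK value came from replicate 1, the library that stood apart. mettl17, which acts in mitochondrial translation, was at 4.08, 3.96 and 1.23 CPM against 16.0, 8.56 and 10.5 CPM at 24 hpf, with log2 differences of 1.85 and 1.90 at the ages. ddo, the gene of D-aspartate oxidase, differed by 1.41 and 1.78. pde9ac, of the phosphodiesterases that break down cGMP, differed by 1.16 and 1.12. alox5b.3, of the lipoxygenases that oxidise polyunsaturated fatty acids, was at 0.764, 0.423 and 0.921 CPM in WIK and 9.65, 10.6 and 9.29 CPM in her3_38aa at 24 hpf. At 72 hpf it was at 1.27, 0.903 and 1.12 CPM against 3.58, 3.01 and 4.67 CPM, so that its log2 difference went from 3.13 to 1.40.

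Other members act in protein folding, protein turnover and RNA processing. HSPA13, of the Hsp70 family, was at 3.14, 4.49 and 5.47 CPM in WIK and 20.2, 20.7 and 19.0 CPM in her3_38aa at 24 hpf, and the log2 differences were 2.10 and 1.77. HSPA8 (ENSDARG00000037403), a gene of the same family that shares its symbol with other genes of the table, was at 0.170, 0.370 and 0.409 CPM against 2.15, 2.19 and 2.85 CPM at 24 hpf. Its copies may share reads, so these values are uncertain. PSMB5, a catalytic subunit of the proteasome, was at 59.0, 30.6 and 28.2 CPM against 78.7, 94.6 and 81.0 CPM at 24 hpf, again with the highest WIK value in replicate 1. Among splicing factors srrm2 differed by 1.09 and 1.12 and cd2bp2 by 1.25 and 2.08. DHX57, a helicase of the DExH family, differed by 1.13 and 1.51, and tep1, a protein found with telomerase and in vault particles, by 2.22 and 1.12. ARL6IP1, a membrane protein that shapes the endoplasmic reticulum, had 36.0, 34.3 and 37.1 CPM in WIK and 93.8, 91.8 and 91.3 CPM in her3_38aa at 24 hpf, and 38.7, 36.2 and 39.9 CPM against 116, 112 and 113 CPM at 72 hpf. Its replicates were close in every group, and the her3_38aa values were far above the WIK values at both ages.

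Immune genes of multigene families were also in the set. igldcp had no read in any of the 6 WIK libraries and was at 8.55, 8.72 and 4.20 CPM in her3_38aa at 24 hpf and at 6.55, 4.11 and 5.22 CPM at 72 hpf. Relative to 3 reads in each library, taken as the floor, these means were at least 37.9-fold higher and at least 34.7-fold higher. With mm-MO 1 library had 1 read (0.0515 CPM) and with her3-MO none had any, so that the WIK-strain libraries were at or next to 0 in all groups. It was the only 1 of the 77 genes with no read in the 6 WIK libraries. nitr4a, an immune-type receptor of a fish-specific immunoglobulin family, was at 0.934, 0.739 and 1.18 CPM in WIK and 2.30, 2.41 and 2.47 CPM in her3_38aa at 24 hpf, and at 0.878, 0.638 and 0.508 CPM against 3.07, 4.64 and 3.98 CPM at 72 hpf. btr07, of a TRIM family expanded in bony fish, was at 0.170, 0.0528 and 0.358 CPM against 0.900, 1.61 and 1.73 CPM at 24 hpf. Genes of such families have close copies, and their read counts are uncertain for that reason.

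Of the signalling and secreted proteins, NTN1 (ENSDARG00000105112), a netrin that guides axons, was at 12.8, 8.61 and 8.54 CPM in WIK and 15.8, 22.5 and 24.6 CPM in her3_38aa at 24 hpf, with log2 differences of 1.03 and 1.77. ACVR2B (ENSDARG00000103108), an activin receptor, was at 4.42, 15.4 and 18.4 CPM against 35.5, 27.3 and 32.4 CPM, with its lowest WIK value in replicate 1. F10, coagulation factor X, differed by 1.11 and 1.57, CLEC19A, a C-type lectin, by 1.22 and 1.11, and tspan4b, a tetraspanin, by 1.07 and 1.31. ppp1r14d, named as an inhibitor of protein phosphatase 1, differed by 1.11 and 1.29 and the zinc finger transcription factor gene sall2 by 1.62 and 1.36. Both rose with age in WIK and in her3_38aa. TTC39A differed by 1.41 and 1.63 and rusf1 by 1.52 and 2.67.

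**Figure D3:**
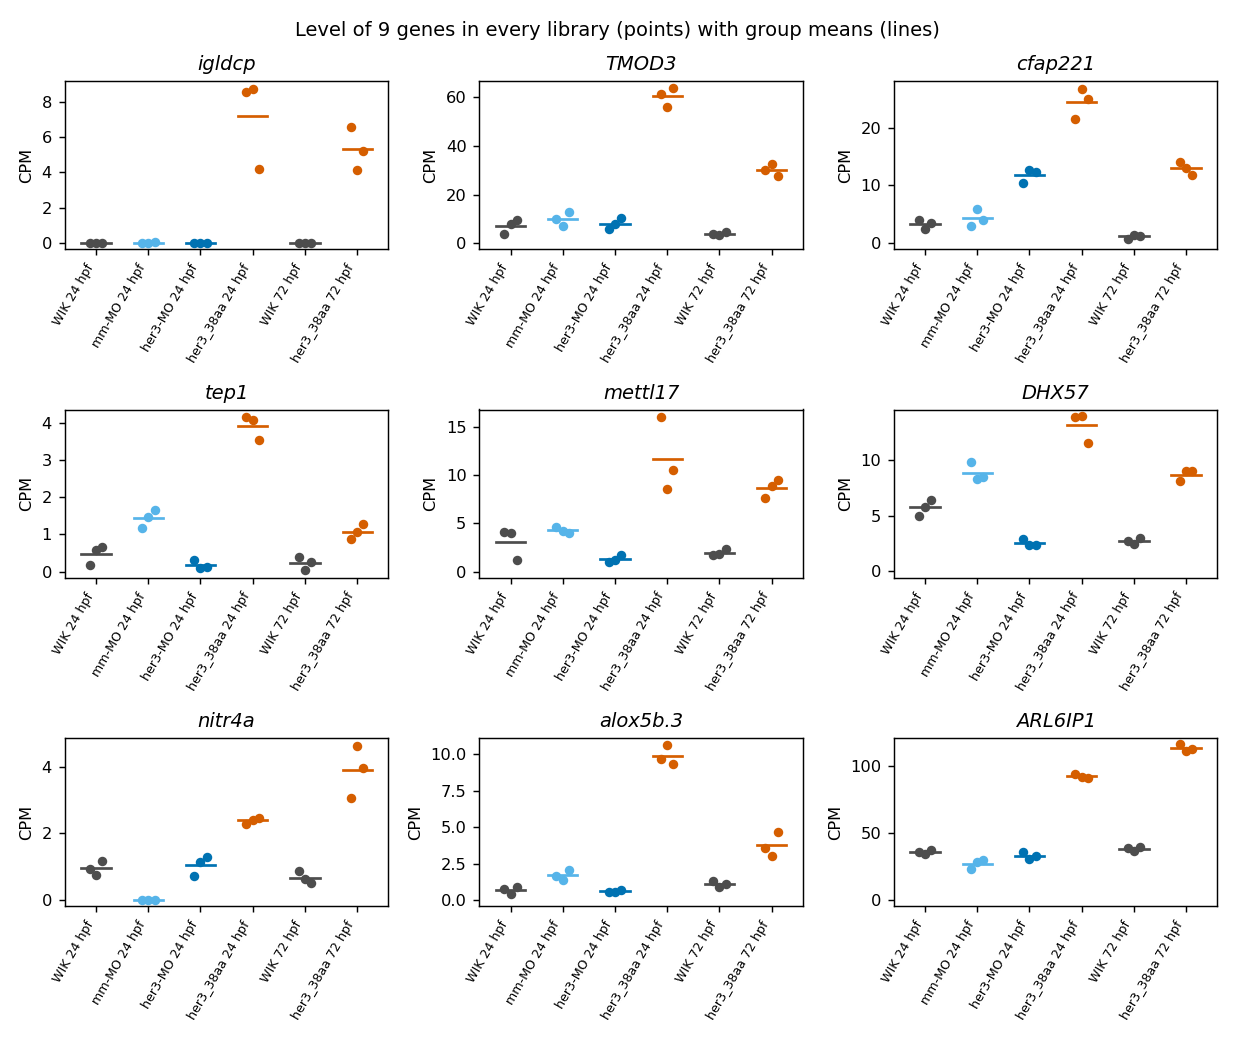
Points give the CPM of 9 of the genes in every library and lines give the mean of each group of 3; each panel has its own linear axis from 0. igldcp, TMOD3 and ARL6IP1 have both morpholino groups near WIK, cfap221 and nitr4a are higher with her3-MO than with mm-MO, and tep1, mettl17, DHX57 and alox5b.3 are lower.

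The comparison of her3-MO with mm-MO asks whether the same genes respond when her3 is targeted within the WIK strain. Its log2 differences use no library of the rule. The spread behind its p-values was estimated over all 18 libraries, including those that chose the genes, so the test is not fully independent of the rule. A fit that takes the spread from the 2 morpholino groups alone, with genes still filtered over all 18 libraries, is given below. All 77 genes were tested, and 61 would have passed the filter on low values without the her3_38aa libraries. By limma with Benjamini-Hochberg adjustment over all genes, 21 of the 77 passed at 0.05 (27.3%), against a background of 3.35% (694 of 20738 genes). Of these 12 were higher with her3-MO (15.6%, background 1.45%) and 9 were lower (11.7%, background 1.90%). Of the 61 genes 16 were called. The share of all genes called under a filter without the her3_38aa libraries was not computed, so this count has no background here. The called genes outside the 61 were btr07, si:cabz01069016.2, LRRC28, ENSDARG00000117451 and si:dkey-50i6.5, all called higher. They passed the filter only through her3_38aa libraries, so the share of 15.6% called higher rests in part on libraries that the rule used. The 3 values of 1 morpholino group lay outside those of the other for 34 of the 77 (44.2%), against a background of 20.8%. The median log2 difference of the 77 was -0.13, and that of all genes tested was 0.00, while the median size without sign was 0.37 against 0.14. The genes were covered by fewer reads than most, with a median of 2.16 CPM with mm-MO against 10.1 CPM for all genes tested, and the median SD within groups on the log2 scale was 0.24 against 0.18. The part that depth has in the shares was not tested. With the filter over all 18 libraries, called genes were thus more frequent among the 77 than among all genes tested. They moved in both directions, not as a group towards the her3_38aa level.

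These counts depended on single libraries. Without her3-MO replicate 2 the call was made for 11 of the 77 (14.3%) and for 327 genes (1.58%). The count over all genes was 422 without her3-MO replicate 3 (2.03%), 441 without mm-MO replicate 1 (2.13%) and 373 without mm-MO replicate 2 (1.80%), with 14, 15 and 14 of the 77 called. Without her3-MO replicate 1 and mm-MO replicate 3, the libraries that stood apart, 18 of the 77 were called (23.4%) and 975 genes (4.70%). With a fit restricted to the 2 morpholino groups 10 were called (13.0%) and 182 genes (0.878%). The filter on low values still counted all 18 libraries there. Of the 4 members called higher in that fit, btr07 and si:cabz01069016.2 passed the filter only through her3_38aa libraries. Its member count is thus not free of the libraries that the rule used. Of the 21 genes 10 held their call when each of the 6 libraries was left out in turn, and 11 lost it in at least 1 case.

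Among the genes higher with her3-MO, cfap221 was at 10.4, 12.7 and 12.3 CPM, above all mm-MO values of 2.98, 5.91 and 4.07 CPM and below all her3_38aa values. The log2 difference was 1.39 ± 0.21 (SE; limma adjusted p = 0.0011). nitr4a was at 0.721, 1.15 and 1.28 CPM with her3-MO, as in WIK, and had no read in any mm-MO library. Its mean with her3-MO was at least 7.83-fold higher against 3 reads per library, and the fitted log2 difference, which depends on the pseudocount, was 1.61 ± 0.17 (adjusted p = 4.3e-05). btr07 showed the same layout, with 0.509, 0.451 and 0.485 CPM against no read, at least 3.60-fold higher (fitted 0.97 ± 0.20, adjusted p = 0.013). For both genes it was the mm-MO group that had no read, while nitr4a with her3-MO overlapped WIK and btr07 with her3-MO lay above it. si:cabz01069016.2 was at 1.06, 0.985 and 0.662 CPM against 0.0408, 0.0833 and 0.103 CPM, a difference of 1.27 ± 0.20 (adjusted p = 0.0014). These 4 genes held their calls in all 6 cases. LRRC28 rose by 1.34 ± 0.27 (adjusted p = 0.0097), which was lost without her3-MO replicate 2 (adjusted p = 0.063). TTC39A rose by 0.84 ± 0.18 (adjusted p = 0.015), which was lost without her3-MO replicates 2 or 3 or mm-MO replicate 3, at up to 0.086. The other 6 genes higher with her3-MO were clone-named or unnamed, with log2 differences from 0.68 to 1.02, and each lost its call in at least 2 cases. btr07, si:cabz01069016.2 and LRRC28, and of the other 6 si:dkey-50i6.5 and ENSDARG00000117451, passed the filter on low values only through her3_38aa libraries. Whether these genes were tested at all thus depended on the libraries that chose them.

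Among the genes lower with her3-MO, DHX57 had the smallest p. It was at 2.88, 2.42 and 2.38 CPM with her3-MO and at 9.87, 8.29 and 8.50 CPM with mm-MO, a log2 difference of -1.62 ± 0.13 (limma adjusted p = 1.7e-06). WIK lay between these groups, at 5.01, 5.81 and 6.45 CPM, and none of the 4 groups of 24 hpf overlapped another. tep1 was at 0.297, 0.0821 and 0.132 CPM with her3-MO and 1.18, 1.46 and 1.65 CPM with mm-MO, a difference of -1.53 ± 0.21 (adjusted p = 0.00059). alox5b.3 was at 0.551, 0.574 and 0.662 CPM against 1.63, 1.37 and 2.06 CPM, a difference of -0.99 ± 0.18 (adjusted p = 0.0053). For tep1 and alox5b.3 the mm-MO values lay above all WIK values and under all her3_38aa values. si:ch211-204c21.3 was lower with her3-MO than with mm-MO by 1.76 ± 0.20 on the log2 scale (adjusted p = 6.7e-05), si:dkey-22i16.9 by 1.66 ± 0.26 (adjusted p = 0.0016) and si:dkey-239h2.3 by 1.38 ± 0.21 (adjusted p = 0.0014). These 6 genes held their calls in all 6 cases. For the clone-named genes, in the same order, the mean with mm-MO lay above WIK by 2.31, 1.65 and 1.33. The mean with her3-MO differed from WIK by 0.55, -0.01 and -0.05. mettl17 fell by 1.43 ± 0.30 (adjusted p = 0.015), which was lost without her3-MO replicate 2 or mm-MO replicates 1 or 2, at up to 0.068. CLEC19A, at -0.61 ± 0.16 (adjusted p = 0.049), lost its call without any 1 of the 6 libraries, at up to 0.14. ENSDARG00000100427, at -1.39 ± 0.34 (adjusted p = 0.036), held it only without mm-MO replicate 1.

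Most of the chief members did not pass this test. The log2 difference of her3-MO from mm-MO was -0.05 ± 0.21 for igldcp, -0.30 ± 0.27 for TMOD3, 0.09 ± 0.18 for HSPA13, 0.05 ± 0.19 for spata7, 0.12 ± 0.16 for catip and 0.05 ± 0.20 for nnt2. It was 0.28 ± 0.09 for ARL6IP1 (adjusted p = 0.10), -0.07 ± 0.10 for srrm2 and -0.51 ± 0.22 for TIMM50. These standard errors are below the log2 differences of 1 and more between her3_38aa and WIK. The rule fixed that minimum, and whether a change of that size would be called between the morpholino groups was not tested. Her3 protein was not measured in these libraries, so nothing is read about her3 from the genes that were not called. igldcp could not have been lower, being at or next to 0 in both groups. nnt2 was also low, with means of 0.239 CPM with her3-MO and 0.213 CPM with mm-MO.

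**Figure D4:**
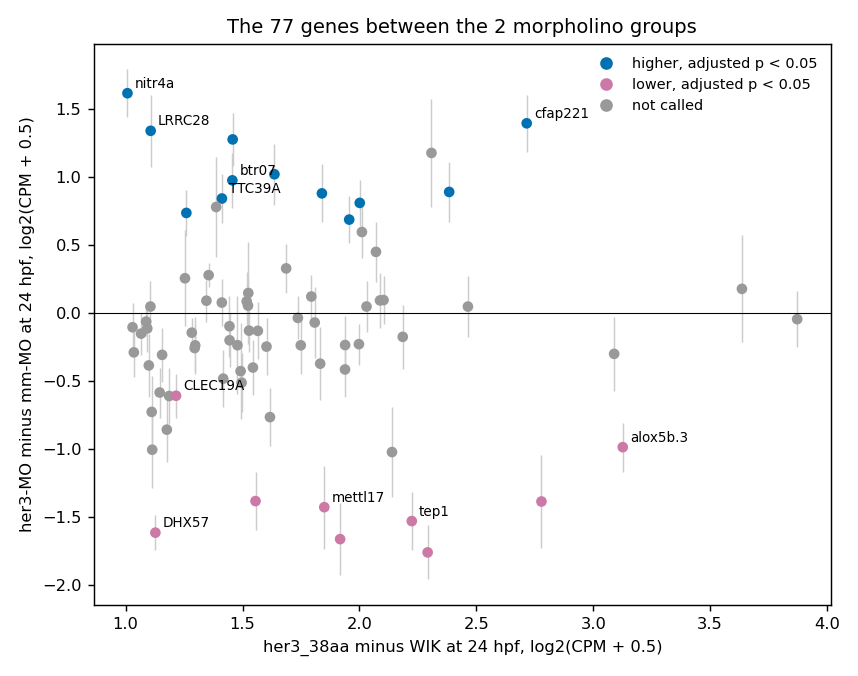
For each of the 77 genes the x axis gives the log2(CPM + 0.5) difference of her3_38aa from WIK at 24 hpf and the y axis that of her3-MO from mm-MO, with bars of 1 SE on the y axis; colours mark limma calls. The 12 higher and 9 lower genes lie at small and large x values alike, and genes with a symbol are named where called.

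Both injected groups, of the WIK strain, stayed nearer to WIK than to her3_38aa for most of the 77 genes. The her3_38aa and WIK values chose the genes, so this is a description, and the distances share the WIK libraries. On the log2 scale the mean with mm-MO lay nearer to the WIK mean for 67 genes and nearer to the her3_38aa mean for 10, and the mean with her3-MO lay nearer to WIK for 71 and nearer to her3_38aa for 6. These counts have no share over all genes beside them here, so nothing is read from their size. The median difference from WIK was 0.18 with mm-MO and 0.08 with her3-MO. All 3 her3_38aa values of 24 hpf exceeded all 3 mm-MO values for 69 genes, all 3 her3-MO values for 73 and both groups for 66 (85.7%). Over all genes tested these layouts were found for 19.8%, 23.1% and 13.7%. Because her3_38aa was chosen to be high at 24 hpf, nothing is read from the gap.

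For 13 genes the mean of an injected group lay nearer to the her3_38aa mean than to the WIK mean, although not always within the her3_38aa values. With both morpholinos this was so for 3, HSPA8, ACVR2B and si:ch211-285c6.6. HSPA8 (ENSDARG00000037403) was at 2.16, 1.96 and 4.28 CPM with mm-MO and at 1.70, 3.36 and 1.19 CPM with her3-MO, against 2.15 to 2.85 CPM in her3_38aa and no more than 0.409 CPM in WIK. ACVR2B (ENSDARG00000103108) was at 31.7, 29.8 and 20.0 CPM with mm-MO and 18.0, 22.0 and 19.2 CPM with her3-MO. Its WIK replicate 1, at 4.42 CPM, was far under the other WIK values of 15.4 and 18.4 CPM. With mm-MO alone the mean lay nearer to her3_38aa for si:dkey-22i16.9, si:ch211-204c21.3, si:dkey-239h2.3, carmil3, DHX57, ENSDARG00000104547 and si:dkey-239b22.1, and for DHX57 and si:dkey-239b22.1 all mm-MO values were still under all her3_38aa values. si:ch211-204c21.3 stood at 0.340, 0.158 and 0.409 CPM in WIK, at 2.45, 5.08 and 3.08 CPM in her3_38aa, at 3.18, 3.54 and 3.61 CPM with mm-MO and at 0.763, 0.656 and 0.573 CPM with her3-MO. With her3-MO alone the mean lay nearer to her3_38aa for cfap221, si:cabz01069016.2 and cd2bp2, and for cfap221 and si:cabz01069016.2 all her3-MO values were under all her3_38aa values. At least 1 value reached the lowest her3_38aa value for 8 genes with mm-MO and for 4 with her3-MO, HSPA8 being in both counts.

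Positions were taken from the gene order of the GRCz12tu assembly, in which 44 of the 77 genes and 16195 genes of the table were found by name. The files were made with another assembly, danRer11, so no coordinates are given. The 44 genes lay on 14 chromosomes. On the chromosome of her3 there were 2 of them (4.55%), against 4.38% of all placed genes, and within 5 Mb of her3 there was 1 (2.27%, against 0.716%). That gene, si:ch211-163b2.4, was at 15.3, 10.1 and 9.57 CPM in WIK and 52.1, 63.2 and 70.9 CPM in her3_38aa at 24 hpf, and at 3.91, 4.00 and 5.36 CPM with mm-MO and 8.60, 7.80 and 9.26 CPM with her3-MO. Both injected groups lay under WIK, and her3-MO was above mm-MO by 0.89 ± 0.22 (limma adjusted p = 0.034), a call kept only without mm-MO replicate 3 and lost without each of the other libraries (up to 0.13).

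Some of the placed genes were neighbours of one another. When members at most 20 protein-coding genes apart were joined, a distance chosen after the data were seen, 6 runs held 19 of the 44 (43.2%). The same joining was not made for other sets of placed genes. This share therefore has no background here, and nothing is read from its size. The longest held 5 members, mettl17, tep1, sall2, PSMB5 and carmil3, among 32 genes of the table. Of the 27 other genes of this run 18 had a higher mean in her3_38aa at 24 hpf and 20 at 72 hpf, where 52.9% and 48.0% of the whole table did. Of all 32 genes 8 met the rule at 24 hpf and 5 at 72 hpf, and 0 were lower at both ages by the mirror rule. Among the genes of the run that met the rule at 24 hpf alone were zgc:66427, homeza and AP1G2, with log2 differences of 1.32, 1.38 and 1.40. With her3-MO the mean was lower than with mm-MO for 22 of the 24 genes tested there, the 5 members included, against 49.4% of all genes tested, and limma called 3 genes lower and 0 higher. The called genes were tep1, mettl17 and homeza, a homeobox gene, at -0.56 (adjusted p = 0.011). Neighbouring genes are not independent of one another.

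**Figure D5:**
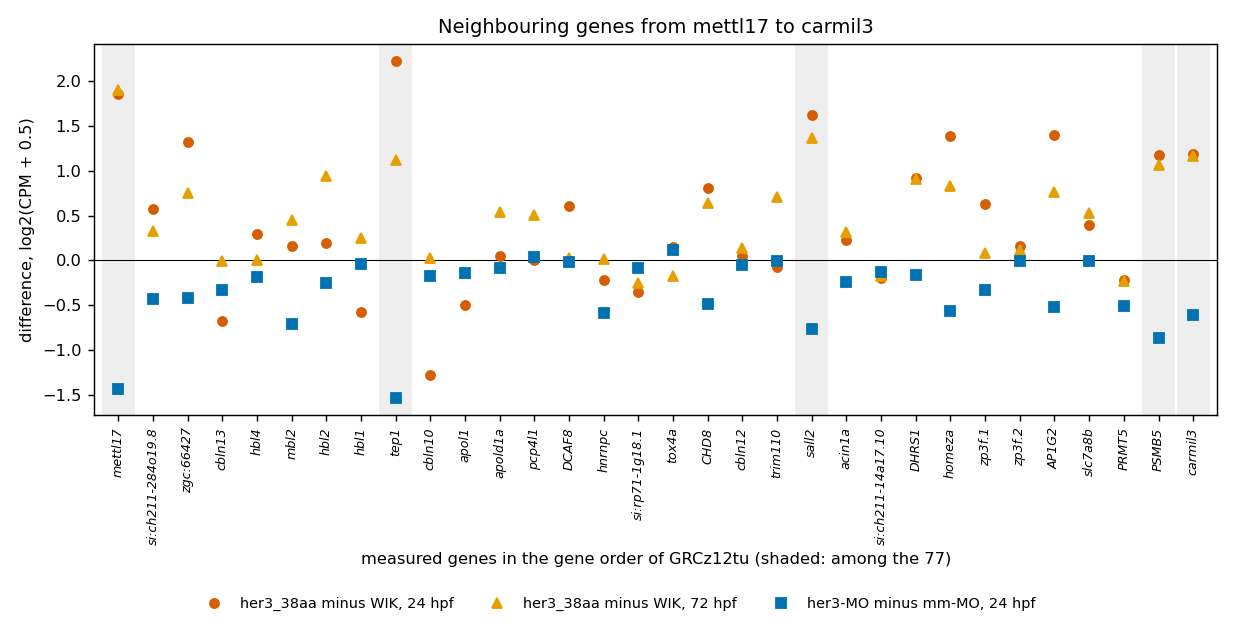
The 32 genes of the table from mettl17 to carmil3 stand in the gene order of GRCz12tu on the x axis, evenly spaced, and the y axis gives log2(CPM + 0.5) differences; shaded columns are the 5 genes of the set. Circles and triangles (her3_38aa minus WIK at 24 and 72 hpf) lie mostly above 0 and squares (her3-MO minus mm-MO) mostly below it.

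The other runs were shorter. si:dkey-66i24.7, zgc:153292, ARL6IP1 and CLEC19A lay among 8 genes of the table. srrm2, cd2bp2, si:dkey-16l2.20 and rusf1 lay among 15 genes. The remaining pairs were LRRC28 with btr07 among 10 genes, ppp1r14d with spata7 among 12, and si:dkey-19a16.7 with si:ch211-209l18.4 among 3. The rule fixed the direction of the members, so only the other genes of each run were counted for her3_38aa against WIK. Taken in that order, the her3_38aa mean was higher for 4 of 4, 7 of 11, 2 of 8, 3 of 10 and 1 of 1 at 24 hpf. At 72 hpf it was higher for 4, 10, 3, 3 and 1 of them. Over the whole table the shares were 52.9% and 48.0%. In the order given, the mean with her3-MO was below that with mm-MO for 3 of 7, 10 of 15, 6 of 8, 3 of 12 and 0 of 2 genes tested, members included. The runs thus did not share 1 direction. Without the members it was below for 0 of 3, 9 of 11, 6 of 6 and 3 of 10 genes tested. In the last run no other gene was tested. Of the members it was below for 3 of 4, 1 of 4, 0 of 2, 0 of 2 and 0 of 2. LRRC28 and btr07 were both called higher with her3-MO, and both had no or few reads with mm-MO. Both passed the filter on low values only through her3_38aa libraries. In addition, 4 members carried the clone name si:dkey-7i4, out of 15 genes of the table with it.

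Gene lists for some of the roles named above, and for other roles not named there, held few genes of the set. Over the whole table the rule was met by 1.04% of genes at 24 hpf, 0.889% at 72 hpf and 0.302% at both. Of 41 measured thin filament and Z-disc genes 3 met the rule at 24 hpf, 1 at 72 hpf and 1, TMOD3, at both. The same counts were 2, 1 and 1 (cfap221) of 51 motile cilium genes, 3, 1 and 1 (pde9ac) of 30 cyclic nucleotide phosphodiesterases, 1, 2 and 1 (alox5b.3) of 18 eicosanoid enzymes, and 1, 1 and 1 (nnt2) of 26 genes of NAD(P) and mitochondrial redox. Of 245 genes of immune families that vary between strains 6 met it at 24 hpf, 5 at 72 hpf and 3 at both, nitr4a, igldcp and btr07. The counts were 1, 0 and 0 of 28 genes on the her, hes and hey list, 1, 0 and 0 of 24 for the Notch pathway, 0, 6 and 0 of 26 clock genes, and 0, 2 and 0 of 21 DNA repair genes. They were 2, 2 and 0 of 331 for a list of zinc finger genes, which did not hold sall2. For adhesion receptors they were 1, 0 and 0 of 35, and for metalloproteinases and their inhibitors 1, 0 and 0 of 27. The mirror rule of being lower was counted at 24 hpf, at 72 hpf and at both. It was met by 3, 2 and 2 eicosanoid enzymes and by 1, 1 and 1 redox genes. It was also met by 5, 6 and 1 immune genes and by 3, 3 and 2 zinc finger genes. For thin filament and Z-disc genes the counts were 1, 1 and 0. For phosphodiesterases they were 1, 0 and 0, and for adhesion receptors 0, 1 and 0. On the other lists no gene met this rule. Among all genes 102 met it at both ages. For the single ages no count over all genes is given here, so nothing is read from those list counts. Between the morpholino groups, where limma called 1.45% of all genes tested higher and 1.90% lower, the numbers higher and lower were 3 and 0 of 45 tested motile cilium genes, 5 and 5 of 131 immune genes, 2 and 0 of 28 genes of the her, hes and hey list, 2 and 0 of 24 Notch pathway genes, and 2 and 0 of 23 adhesion receptors. They were 0 and 4 of 26 clock genes, 0 and 2 of 39 thin filament and Z-disc genes, 0 and 2 of 21 for DNA repair and likewise for metalloproteinases. They were 0 and 1 of 28 phosphodiesterases, of 14 eicosanoid enzymes and of 26 redox genes, and 1 and 2 of 292 zinc finger genes. her3 itself met the rule at 24 hpf, with a log2 difference of 1.11. It was also called higher with her3-MO than with mm-MO (2.11 ± 0.12, limma adjusted p = 5.9e-08). The counts of the her, hes and hey list may therefore hold the targeted gene.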

How the data were processed

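The authors deposited 1 table of CPM values per library and gene. Per the submitters' processing notes, the tools were featureCounts 2.0.2, HISAT2 2.2.1, edgeR 3.34.0 and SAMtools 1.10 and the build was danRer11. How strand and multi-mapping reads were handled is not given in the sources used here. Overlapping genes and close copies are uncertain for that reason. Columns sum to 912145 to 1206849 CPM, and 100% of values are whole multiples of 1 read's worth (tolerance 0.01 reads), from which reads per library were recovered. Floors and read numbers cover counting error only. Gene names were matched for 23539 of 25535 identifiers.

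log2(CPM + 0.5) was computed; differences on this scale understate the change of low genes. Genes with at least 1 CPM in 3 or more libraries were tested (20738 kept, 4797 removed) with limma 3.58.1 (R 4.3.3; trend and robust moderation, 1 coefficient per group over 18 libraries, 12 residual degrees of freedom), with Benjamini-Hochberg adjustment and a threshold of 0.05. The fit and the rule were tested on simulated data. Python 3.11.15, pandas 2.3.3, numpy 2.4.6 and matplotlib 3.10.9 were used for the rest. Replicates are separate pools, called biological by the submitters.

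The members, gene lists and tests were chosen with earlier results of these data known. Named genes were her3, the 12 members with a symbol and the highest smaller difference, members near her3, up to 8 called members of lowest p, 5 of highest CPM, list members, 3 genes on each side of the limit and 4 whose ages differed most; other members were named after their values were seen. Alternatives were the pseudocount, the limits, the scaling, the filter, the groups fitted, a replicate block, voom weights and leaving out libraries. No paired fit was used as the main one, since same-numbered libraries did not all deviate together (correlations of -0.583 to 0.321 over 21 pairs).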

Additional observations from a re-analysis of the deposited data

How the results depend on the processing

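The set held 28 genes at a log2 limit of 1.5. It held 61 with a pseudocount of 1, 80 with no CPM minimum, 83 scaled to the plain column total and 80 with median-ratio factors, and 73 to 80 when each of the 12 libraries was left out in turn. Without WIK replicate 1 of 24 hpf and her3_38aa replicate 3 of 72 hpf, a setting added after the data were seen, it held 78, of which 72 were among the 77. Between her3-MO and mm-MO 21 members and 694 genes were called, against 10 and 182 in a fit restricted to the morpholino groups and 17 and 433 with the replicate block. That block gave libraries of the same number and age a shared term over all groups of the age, WIK and her3_38aa included. A paired fit of her3-MO with mm-MO alone was not run. For her3-MO and mm-MO the same-number correlations were 0.0708 to 0.291 and each of 3 libraries correlated best with its own number. This is a hint from the data and not from the design. For WIK of 24 hpf and mm-MO the same-number correlations were -0.583 to 0.321. Leaving out 1 library gave 11 to 20 members and 327 to 817 genes. voom on recovered reads, also added later, gave 22 and 830, and 18 and 975 were called without her3-MO replicate 1 and mm-MO replicate 3, likewise added. A pseudocount of 1, no filter on low values and median-ratio factors gave 20 to 21 members. The share called was higher among members than among all genes in every setting listed. Except with no filter on low values, the filter counted the her3_38aa libraries in all of these settings. Members that pass it only through those libraries stayed in the counts. The settings also share most libraries, so nothing further is read from their agreement. No member called in the main comparison reversed its direction in these settings. The cause of the lower counts was not tested. The other count tests planned for recovered reads were not run, and promoter motifs were not analysed here. The members had a median of 2.16 CPM with mm-MO, so the precision of many of them is limited by few reads.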
